A study of Homo sapiens with 6 samples.

Results

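The neurexins, the neuroligins, LRRTM2, FLRT2, FLRT3 and TENM3 encode adhesion proteins that meet across the synaptic cleft. They were taken by gene symbol, and all 9 symbols (NRXN2, NRXN3, NLGN1, NLGN2, NLGN3, LRRTM2, FLRT2, FLRT3 and TENM3) were found among the 16832 listed genes. RNA was sequenced from U251, an established human glioma cell line labelled wild type. The SLCDS group has 3 libraries of cells incubated for 18 days with a small-molecule cocktail of that name, and the labels leave its components unnamed. The Control group has 3 libraries of cells that received PBS, with no culture time stated. The series title calls the SLCDS cells neuronal-like, so the question here is whether genes of synaptic adhesion stood higher or lower in them.

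As background, neurexins are carried mostly by the axon terminal and bind several kinds of ligand on the facing cell, among them neuroligins, LRRTM proteins and cerebellin complexes. Neuroligin 1 is found mainly at excitatory synapses and neuroligin 2 at inhibitory ones, where it binds the scaffold protein gephyrin. Latrophilins, which are adhesion G protein-coupled receptors, bind teneurins and FLRT proteins, and FLRT proteins also bind UNC5 netrin receptors. In glioma the family is known for neuroligin 3, whose shed ectodomain promotes tumour growth in mouse models. Neurexin genes have separate promoters for long alpha and short beta forms.

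Deposited values are FPKM, fragment numbers scaled to transcript length and library depth, a level per length that can be set side by side between genes. In these files the low FPKM values stand in ratios of whole numbers. Once the relative depth of the libraries is allowed for, 1807 of 1816 low genes (99.5%) gave whole numbers within 0.02, so the smallest whole fragment numbers are given beside low members. Where those numbers shared a factor, the true fragment numbers would be larger by it. Relative depth was 1, 0.984 and 1.02 in SLCDS replicates 1 to 3 and 0.968, 0.967 and 1.01 in Control replicates 1 to 3. Control replicate 3 stood apart. Its Pearson correlation over genes on log2(FPKM + 1) with the other Control libraries was 0.9888 and 0.9889, against 0.9983 between those, and the SLCDS libraries correlated with each other at 0.9978 to 0.9980. Genes are not independent replicates, so these values describe the libraries only. Results of members that rest on Control replicate 3 are given with and without it, and partner genes were counted both ways. In bulk RNA, fewer cells of a type and less RNA per cell cannot be told apart.

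The cells carried glial and progenitor transcripts, and the neuron markers ranged from abundant to near 0. SOX2 averaged 376 FPKM in SLCDS and 431 FPKM in Control, and the astrocyte filament gene GFAP 135 FPKM in SLCDS and 339 FPKM in Control. The progenitor filament gene NES averaged 254 FPKM in SLCDS and 216 FPKM in Control, and OLIG2, a glial lineage factor, 2.74 FPKM in SLCDS and 1.49 FPKM in Control. Of the 7 tested genes of the astroglia and glioma list 1 was higher (OLIG2), 1 lower (GFAP) and 5 did not pass. The median over the 7 was 0.023 (log2 fold change). The summed level of the 9 neuron markers was 89.97 to 91.5 FPKM in SLCDS and 93.5 to 98.3 FPKM in Control. Of the 6 neuron markers tested, 1 was higher, the vesicle calcium sensor gene SYT1. TUBB3 averaged 29.5 FPKM in SLCDS and 39.4 FPKM in Control, NEFL 28.9 FPKM in SLCDS and 26.0 FPKM in Control, MAP2 14.7 FPKM in SLCDS and 18.5 FPKM in Control, and SNAP25 6.24 FPKM in SLCDS and 4.85 FPKM in Control. SYP averaged 1.08 FPKM in SLCDS and 0.714 FPKM in Control, and met the filter through its SLCDS libraries alone. The groups lay apart for TUBB3, lower in SLCDS, and for SNAP25 and SYP, higher in SLCDS, and none of these passed. Groups lay apart for 29.1% of all tested genes. DCX averaged 0.319 FPKM in SLCDS and 0.330 FPKM in Control. Near 0 were RBFOX3, with a mean of 0.0110 FPKM in SLCDS and 0.00687 FPKM in Control, and STMN2, with a mean of 0.137 FPKM in SLCDS while listed at 0 in all Control libraries. Among markers of other cells, the endothelial list summed to 4.63 to 5.44 FPKM in SLCDS and 1.52 to 2.72 FPKM in Control, and the fibroblast and pericyte list to 2.28 to 2.62 FPKM in SLCDS and 1.32 to 1.495 FPKM in Control. The myeloid list summed to 3.59 to 4.74 FPKM in SLCDS and 2.78 to 3.13 FPKM in Control. Most of each of these sums in SLCDS came from a single gene (CDH5, PDGFRB and CD68), while defining markers lay near 0, among them the oligodendrocyte marker SOX10 (0.0342 FPKM in SLCDS and 0.00709 FPKM in Control), PECAM1 (0.0781 FPKM in SLCDS and 0.0666 FPKM in Control), DCN (0.0225 FPKM in SLCDS and 0.00583 FPKM in Control) and PTPRC (0.00920 FPKM in SLCDS and 0.0446 FPKM in Control). Their part in the results below was not tested.

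NRXN3, the gene of neurexin 3, was the member that rose. The RefSeq table (GRCh38.p14) gives it 3 start sites on the plus strand of chromosome 14, and the 250 bases before each are shown because the deposited value adds up all forms of the gene. They are called start sites A, B and C here, in order along the strand. Within 1000 bases of start site A, GENCODE release 29 places 1 coding transcript of 1664 codons. It places 2 near start site B, of 75 and 1061 codons, and 3 of 432 to 637 codons near start site C. Capitals mark an E-box, CAGCTG, the site read by many basic helix-loop-helix factors.
NRXN3, start site A, chr14:78170123-78170372: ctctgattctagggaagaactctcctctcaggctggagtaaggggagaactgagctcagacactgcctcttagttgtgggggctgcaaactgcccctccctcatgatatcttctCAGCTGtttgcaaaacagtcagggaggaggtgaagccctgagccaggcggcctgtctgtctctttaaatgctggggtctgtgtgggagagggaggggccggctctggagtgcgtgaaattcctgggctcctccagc
NRXN3, start site B, chr14:78403469-78403718: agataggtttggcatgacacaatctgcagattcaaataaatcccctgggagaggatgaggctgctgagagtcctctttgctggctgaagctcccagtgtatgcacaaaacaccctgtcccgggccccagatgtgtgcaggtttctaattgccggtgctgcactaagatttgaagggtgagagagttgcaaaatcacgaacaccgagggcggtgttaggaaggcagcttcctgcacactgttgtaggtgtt
NRXN3, start site C, chr14:79279130-79279379: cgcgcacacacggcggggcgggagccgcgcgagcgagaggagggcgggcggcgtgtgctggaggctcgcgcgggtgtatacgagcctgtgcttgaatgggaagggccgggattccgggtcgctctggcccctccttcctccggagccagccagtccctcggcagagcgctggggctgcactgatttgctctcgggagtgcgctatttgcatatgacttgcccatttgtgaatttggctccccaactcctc
Motifs were searched on both strands in the RefSeq windows, and the CAGCTG E-box, which reads the same on both strands, was found in 14% of all 35116 windows of this length. Among the member windows it was also found once each for FLRT2 and NLGN2. These matches describe letters and are not evidence of binding. Windows were held for 8 of the 9 members, 14 in all, and none was found for NRXN2.

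NRXN3 had 2.30, 2.18 and 2.30 FPKM in SLCDS replicates 1 to 3, against 0.671, 0.668 and 0.542 FPKM in Control replicates 1 to 3. All SLCDS libraries lay above all Control libraries, with a wide gap between the groups. In fragments this was 556, 517 and 567 in SLCDS and 157, 156 and 132 in Control. The mean was 2.26 ± 0.0730 FPKM in SLCDS and 0.627 ± 0.0736 FPKM in Control (SD, n = 3 each), a ratio of 3.60. On the log2(FPKM + 1) scale, where fold changes of low genes come out too small, NRXN3 rose by 1.00 (SE 0.07, 95% interval 0.83 to 1.18; limma, Benjamini-Hochberg adjusted p = 0.000688). Without Control replicate 3 the log2 fold change was 0.96 (limma, adjusted p = 1.73e-05). NRXN3 met the filter of an FPKM of at least 1 in 3 libraries through its SLCDS libraries alone, so it could be tested only because it was high there. With no filter its limma adjusted p was 0.00114, and 4.95% of all 16832 genes passed. Over the 16 other settings that tested NRXN3 the limma adjusted p lay between 1.73e-05 and 0.0101, and the log2 fold change between 0.84 with quantile normalization and 1.70 with a pseudocount of 0.1.

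NRXN2, the gene of neurexin 2, was close to the detection limit. It had 0.0514, 0.0435 and 0.0419 FPKM in SLCDS, against 0.0354, 0.00885 and 0.0170 FPKM in Control. These values correspond to 6, 5 and 5 fragments in SLCDS and to 4, 1 and 2 fragments in Control. The groups did not overlap, but the ratio of summed fragments after allowing for depth was 2.24 with an exact 95% counting interval of 0.871 to 6.44, which includes no difference. That interval, like the counting intervals given below for other genes, covers counting error only and leaves out the spread between libraries. An exact 2-sided permutation test on log2(FPKM + 1) gave p = 0.1, the smallest that 3 against 3 libraries allow.

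**Figure D1:**
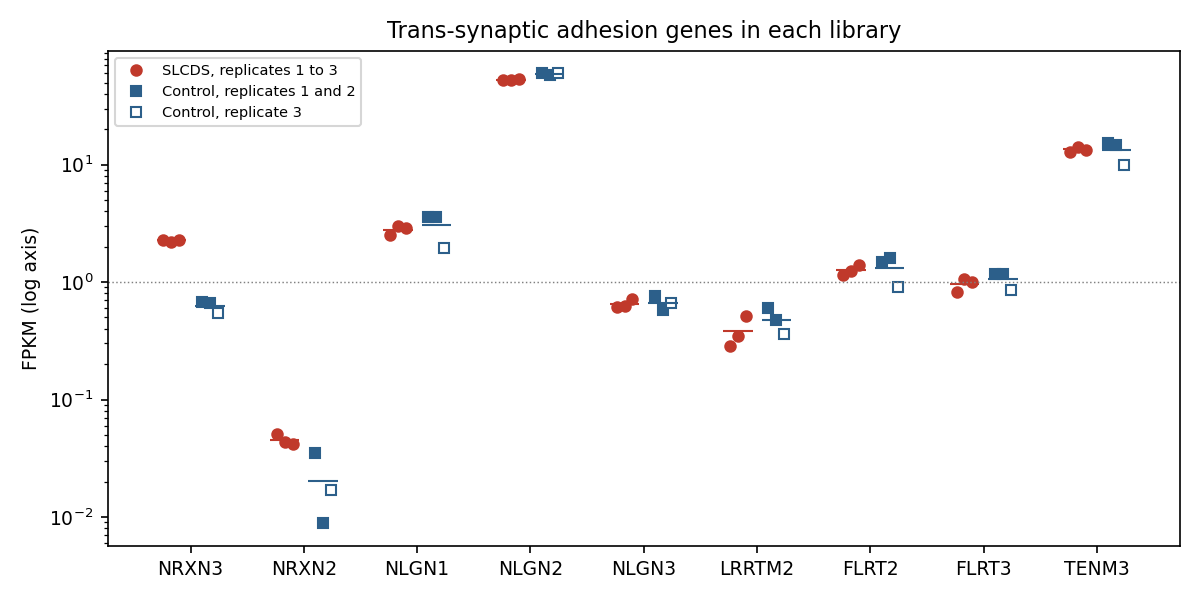
FPKM of the 9 adhesion genes in each library on a log axis, with SLCDS at the left of each pair, Control at the right, bars at the group means and a dotted line at an FPKM of 1. NRXN3 is the member whose SLCDS values of 2.18 to 2.30 FPKM stand far above its Control values of 0.542 to 0.671 FPKM, while the open squares of Control replicate 3 also lie below the other Control libraries for NLGN1, LRRTM2, FLRT2, FLRT3 and TENM3.

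Neuroligins are the classical partners of neurexins on the facing membrane, and none of those tested rose. NLGN2, the most abundant member in every library, had 52.3, 52.6 and 53.4 FPKM in SLCDS, against 59.9, 58.4 and 60.0 FPKM in Control. The SLCDS libraries lay below all Control libraries. The mean was 52.8 ± 0.539 FPKM in SLCDS and 59.4 ± 0.864 FPKM in Control (SD, n = 3 each), a ratio of 0.888. In the fit across all genes the log2 fold change was -0.17 (SE 0.06, 95% interval -0.31 to -0.024) and did not pass (limma, adjusted p = 0.196). NLGN2 was lower without Control replicate 3 (log2 fold change -0.16; limma, adjusted p = 0.0112) and once each library's dependence on transcript length and GC content was taken out (-0.19; limma, adjusted p = 0.0153, where 18% of all tested genes passed), in 2 of 17 other settings in all. NLGN2 made up 92.6% to 92.9% of the summed FPKM of NLGN1, NLGN2, NLGN3 and NLGN4X in SLCDS. In Control it made up 92.2% and 92.3% in replicates 1 and 2 and 95.2% in replicate 3.

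NLGN1, the neuroligin found mainly at excitatory synapses, had 2.50, 3.00 and 2.88 FPKM in SLCDS, against 3.57, 3.60 and 1.93 FPKM in Control. Every SLCDS library lay below Control replicates 1 and 2 and above Control replicate 3. Over all libraries the log2 fold change was -0.060 (SE 0.18, 95% interval -0.48 to 0.36; limma, adjusted p = 0.895). Without Control replicate 3 NLGN1 was lower in SLCDS (log2 fold change -0.28; limma, adjusted p = 0.0282), and after that correction for length and GC content the log2 fold change was -0.17 (limma, adjusted p = 0.201). NLGN3, the neuroligin linked to glioma growth, had 0.613, 0.623 and 0.711 FPKM in SLCDS, against 0.766, 0.576 and 0.664 FPKM in Control, and the groups overlapped. It lay under the filter in every library. Its summed fragments were 242 in SLCDS and 244 in Control, a depth-adjusted ratio of 0.972 with an exact 95% counting interval of 0.810 to 1.17. The exact permutation test gave p = 0.7.

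LRRTM2 encodes a postsynaptic leucine-rich repeat protein that binds neurexins. It had 0.284, 0.349 and 0.509 FPKM in SLCDS, against 0.597, 0.477 and 0.360 FPKM in Control, or 29, 35 and 53 fragments in SLCDS and 59, 47 and 37 fragments in Control. The groups overlapped, and the gene lay under the filter in every library. The depth-adjusted ratio of summed fragments was 0.801 (exact 95% counting interval 0.622 to 1.03), and the exact permutation test gave p = 0.4. LRRTM2 lies inside the alpha-catenin gene CTNNA1 on the opposite strand. CTNNA1 had 62.3 to 65.9 FPKM in SLCDS and 66.4 to 68.1 FPKM in Control. The sources used here do not state whether strand was used in counting, so fragments of this pair may not be told apart. The 250 bases before the LRRTM2 start site are shown because they alone among the member windows hold a full cAMP response element, TGACGTCA, which was found in 1.65% of all windows. In the sequence the capitals are, in order, a TATAAA match read on the other strand, a motif held by 10.7% of windows, and the response element, and the 2 do not overlap.
LRRTM2, GRCh38.p14, minus strand, chr5:138875336-138875585: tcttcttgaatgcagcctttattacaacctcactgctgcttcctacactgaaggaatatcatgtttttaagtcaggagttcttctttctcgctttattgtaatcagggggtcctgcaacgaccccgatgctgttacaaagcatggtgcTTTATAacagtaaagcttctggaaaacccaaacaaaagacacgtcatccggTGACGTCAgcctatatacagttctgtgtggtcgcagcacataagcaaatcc

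The latrophilin ligands FLRT2, FLRT3 and TENM3 did not differ beyond their spread. FLRT2 had 1.14, 1.24 and 1.41 FPKM in SLCDS, against 1.47, 1.59 and 0.901 FPKM in Control (log2 fold change -0.024, 95% interval -0.33 to 0.28; limma, adjusted p = 0.946). FLRT3 had 0.828, 1.07 and 0.997 FPKM in SLCDS, against 1.17, 1.18 and 0.863 FPKM in Control (log2 fold change -0.075, 95% interval -0.30 to 0.15; limma, adjusted p = 0.743). For FLRT2 every SLCDS library lay between Control replicate 3 and the other Control libraries, and for FLRT3 SLCDS replicate 1 lay below all of them. FLRT3 lies inside MACROD2 on the opposite strand. MACROD2 had 0.0114 to 0.0771 FPKM in SLCDS and 0.0223 to 0.0349 FPKM in Control, well below FLRT3. TENM3, the gene of teneurin 3, had 12.8, 14.2 and 13.4 FPKM in SLCDS, against 15.4, 14.6 and 9.93 FPKM in Control. The SLCDS libraries again fell between Control replicate 3 and the other Control libraries. The log2 fold change of TENM3 was 0.037 (95% interval -0.32 to 0.40; limma, adjusted p = 0.927), and without Control replicate 3 it was -0.15 (limma, adjusted p = 0.0899). Without that library the limma adjusted p was 0.205 for FLRT2 and 0.252 for FLRT3.

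Of the 9 members 6 were tested, and NRXN3 alone passed at an adjusted p under 0.05, where 6.09% of all 11506 tested genes did. Among these 6 the groups did not overlap for NRXN3 and NLGN2, against 29.1% of all tested genes, and they did not overlap either for NRXN2, which was not tested. Without Control replicate 3, NRXN3 was higher and NLGN1 and NLGN2 were lower, and 27.7% of all tested genes passed. Since NRXN3 could be tested only through its high SLCDS values, these counts do not support a statement about the members as a set.

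**Figure D2:**
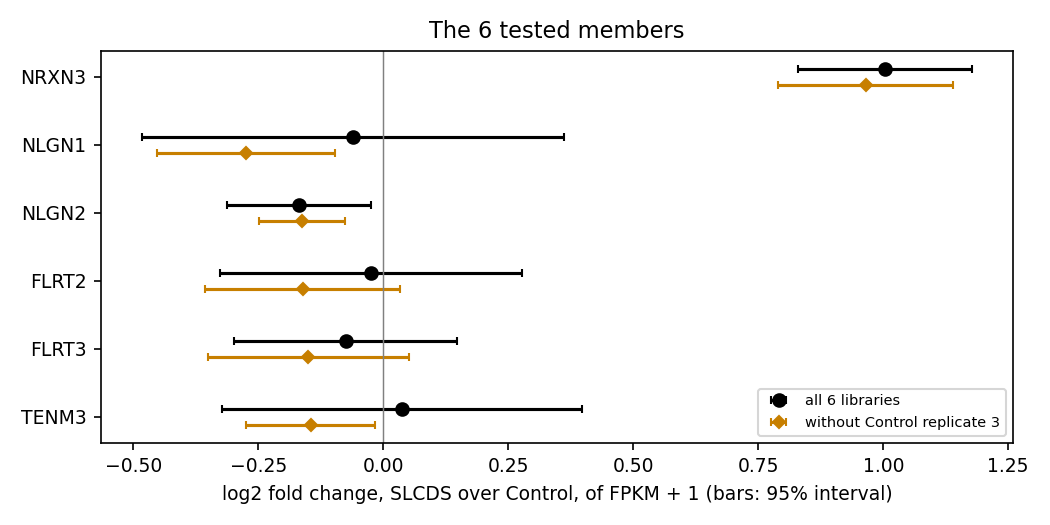
Log2 fold change of SLCDS over Control on the FPKM + 1 scale with its 95% interval from limma, for all 6 libraries (circles) and without Control replicate 3 (diamonds). NRXN3 lies near 1 in both fits, and without Control replicate 3 NLGN1 moves to -0.28 and TENM3 to -0.15.

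The order of the members by level changed at 1 place. In SLCDS it ran NLGN2, TENM3, NLGN1, NRXN3, FLRT2, FLRT3, NLGN3, LRRTM2 and NRXN2, and no neighbours in this order overlapped in range. In Control it ran NLGN2, TENM3, NLGN1, FLRT2, FLRT3, NLGN3, NRXN3, LRRTM2 and NRXN2. There FLRT2 and FLRT3, NLGN3 and NRXN3, and NRXN3 and LRRTM2 overlapped. NRXN3 was the fourth of the members in SLCDS and the seventh in Control, while the other members kept their order among themselves.

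The distance of Control replicate 3 from the other Control libraries differed between members. Its FPKM was 0.539 times the mean of Control replicates 1 and 2 for NLGN1, 0.589 times for FLRT2, 0.663 times for TENM3, 0.670 times for LRRTM2 and 0.734 times for FLRT3. For NRXN2, with its few fragments, it was 0.768 times, for NRXN3 0.810 times, for NLGN3 0.990 times and for NLGN2 1.01 times. The 5 members furthest down had a GC content of 35.2% to 47.1% in their longest coding transcript, and NLGN3 and NLGN2 had 55.8% and 62.6%. The order was not strict, since NRXN3 at 41.5% lay within that low range and NRXN2 had the highest GC content of the members, 64.5%. Over all tested genes the median difference of Control replicate 3 from the other Control libraries was -0.24 on log2(FPKM + 1) in the 2255 genes with the lowest GC content and 0.33 in the 2255 genes with the highest. The same medians for SLCDS against Control replicates 1 and 2 were -0.033 and 0.036. Whether base composition accounts for the values of the members was not tested. After the correction for length and GC content, NRXN3 stayed higher (log2 fold change 0.89; limma, adjusted p = 0.000834).

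**Figure D3:**
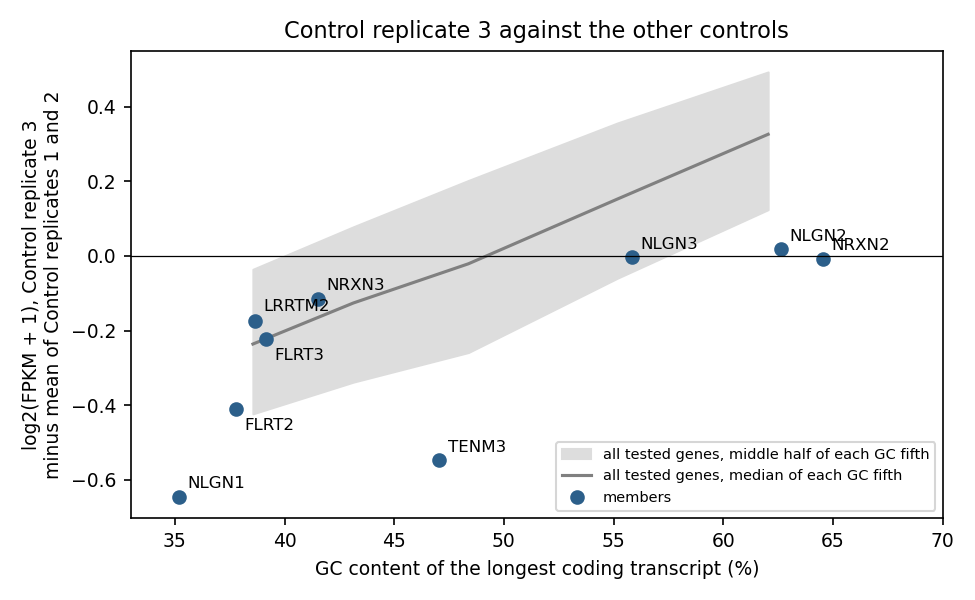
Difference in log2(FPKM + 1) between Control replicate 3 and the mean of Control replicates 1 and 2, against GC content in percent, for the 9 members (points) and for all tested genes (line at the median of each of 5 equal GC classes, band from the lower to the upper quartile). NLGN1 at 35.2% GC lies lowest at -0.65, TENM3 at -0.55 lies below the band, and NLGN2 and NLGN3 lie near 0, NLGN2 at 0.018 below the band of its class (0.12 to 0.49).

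Genes that bind, anchor, cut or splice these adhesion proteins, or belong to related adhesion families, were counted from 7 lists with 107 entries. Of these 97 were listed and 63 tested. Of the 63 tested 3 rose (4.76%, against 4.28% of all tested genes), 3 fell (4.76%, against 1.82%) and the rest did not pass. The median log2 fold change was 0.039, against 0.00036 over all tested genes. Without Control replicate 3, 14 were higher and 9 lower, against 16% and 11.8% of all tested genes.

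Among neurexin ligands and regulators, 1 of 6 tested genes rose, 1 fell and 4 did not pass. NXPH4, a member of the neurexophilins, which are secreted glycoproteins that bind alpha-neurexins, had 4.80, 5.32 and 4.44 FPKM in SLCDS, against 2.04, 1.73 and 2.92 FPKM in Control (log2 fold change 0.87, SE 0.14; limma, adjusted p = 0.0139). Its relative NXPH1, which did not meet the filter, had 1.15, 0.943 and 1.46 FPKM in SLCDS, against 0.508, 0.433 and 0.488 FPKM in Control, and was higher with no filter (limma, adjusted p = 0.0225). C1QL1, of the secreted C1q-like proteins that act as synaptic organizers, fell to 20.5, 19.9 and 21.0 FPKM in SLCDS, against 40.6, 39.4 and 60.0 FPKM in Control (log2 fold change -1.13, SE 0.16; limma, adjusted p = 0.00666). C1QL1 stands in this list with its family, and whether it binds neurexins itself was not examined. NXPH4, NXPH1 and C1QL1 each had groups that lay apart. NXPH4 did not pass when any 1 of the SLCDS libraries, or Control replicate 1, was left out (limma, adjusted p = 0.0551 to 0.0797).

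Of the latrophilin, teneurin, FLRT and UNC5 genes 1 of 9 tested rose over all libraries, none fell and 8 did not pass. The riser was UNC5B, a netrin receptor that FLRT proteins bind, with 8.27, 8.44 and 8.11 FPKM in SLCDS, against 0.907, 1.54 and 0.738 FPKM in Control (log2 fold change 2.19, SE 0.14; limma, adjusted p = 0.000435). UNC5B met the filter through its SLCDS libraries, since Control replicate 2 alone of the Control libraries reached an FPKM of 1. With no filter its limma adjusted p was 0.00143. FLRT2 and FLRT3, whose products are ligands of UNC5 proteins, are described above and did not pass. Among the other teneurin genes, TENM4, which was under the filter and is named outside the rule, had 0.800, 0.975 and 0.890 FPKM in SLCDS, against 0.539, 0.414 and 0.143 FPKM in Control. TENM1 had 23.1, 27.0 and 25.04 FPKM in SLCDS, against 29.8, 27.6 and 10.02 FPKM in Control. Like TENM3, TENM1 was lowest in Control replicate 3, and without that library it was lower in SLCDS (log2 fold change -0.19; limma, adjusted p = 0.0496). ADGRL1, a latrophilin gene, was higher without that library (log2 fold change 0.16; limma, adjusted p = 0.0359). After the correction for length and GC content neither passed (limma, adjusted p = 0.649 for TENM1 and 0.0835 for ADGRL1). TENM3 held 24.5% to 25.3% of the summed teneurin FPKM in SLCDS. In Control it held 25.8% and 25.9% in replicates 1 and 2 and 34.8% in replicate 3.

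**Figure D4:**
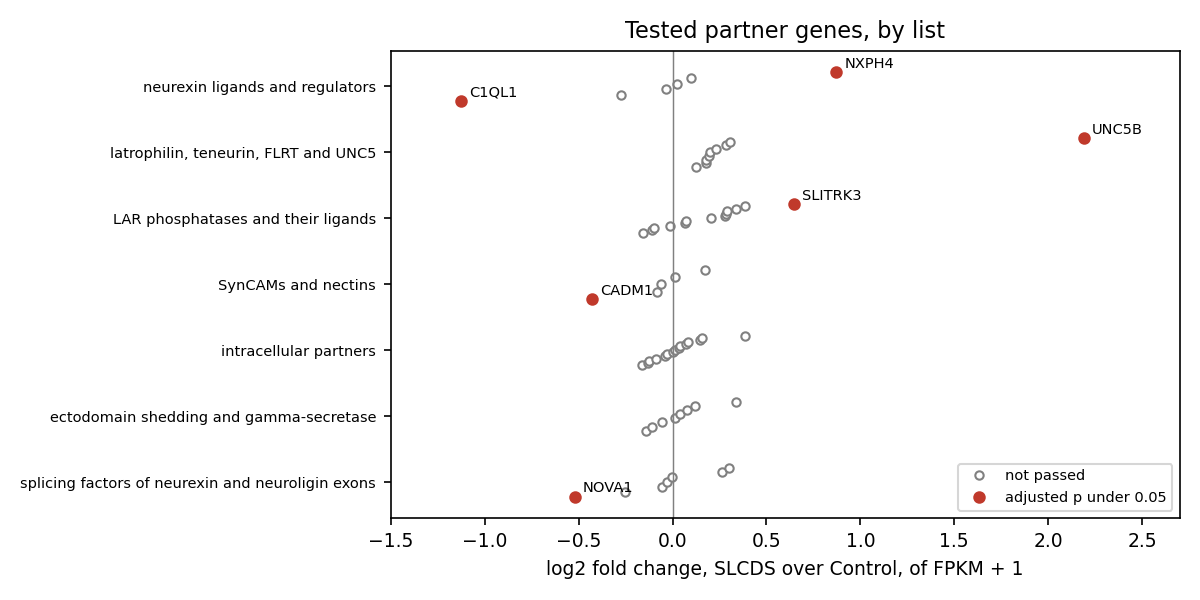
Log2 fold change of SLCDS over Control on the FPKM + 1 scale for the 63 tested partner genes, one row per list, with genes at a limma adjusted p under 0.05 filled and named. UNC5B at 2.19, NXPH4 at 0.87 and SLITRK3 at 0.64 rose, and C1QL1 at -1.13, NOVA1 at -0.52 and CADM1 at -0.43 fell.

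Among LAR-type receptor phosphatases, their ligands and netrin-G ligands, 1 of 13 tested genes rose over all libraries, none fell and 12 did not pass. SLITRK3, a postsynaptic ligand of the phosphatase PTPRD at inhibitory synapses, had 4.55, 4.55 and 4.29 FPKM in SLCDS, against 2.88, 2.63 and 2.04 FPKM in Control (log2 fold change 0.64; limma, adjusted p = 0.0138). SLITRK3 did not pass when any 1 of the SLCDS libraries was left out (limma, adjusted p = 0.0642 to 0.0842). Without Control replicate 3, where 27.7% of all tested genes passed, PTPRS and PTPRF were lower (limma, adjusted p = 0.00298 and 0.0451). SLITRK3, IL1RAP, SLITRK2, LRFN4, NTNG1 and NTNG2 were higher there (limma, adjusted p = 0.000374 to 0.0371). After the correction for length and GC content, SLITRK3, IL1RAP and SLITRK2 stayed higher (limma, adjusted p = 0.00106 to 0.0205). PTPRS, PTPRF, LRFN4, NTNG1 and NTNG2 did not pass then (limma, adjusted p = 0.0939 to 0.542). LRRC4B, which encodes netrin-G ligand 3, a partner of LAR phosphatases, was under the filter, and is named because of its values. It had 0.786, 0.820 and 0.729 FPKM in SLCDS, against 0.0325, 0.0867 and 0.0624 FPKM in Control. The summed fragments of LRRC4B were 223 in SLCDS and 17 in Control, a depth-adjusted ratio of 12.8 with an exact 95% counting interval of 7.85 to 22.5, and with no filter it was higher (limma, adjusted p = 0.000893). SLITRK6 was likewise called only with no filter, with 0.783, 0.668 and 0.699 FPKM in SLCDS, against 0.347, 0.391 and 0.264 FPKM in Control (limma, adjusted p = 0.0123).

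In the other lists few genes passed. Of 5 tested SynCAM and nectin genes CADM1, which encodes the homophilic adhesion molecule SynCAM 1, fell to 7.46, 8.45 and 8.27 FPKM in SLCDS, against 11.99, 11.5 and 10.2 FPKM in Control (limma, adjusted p = 0.0340), none rose and 4 did not pass. CADM1 passed in 10 of 17 other settings, and did not with FPKM sums made equal, with the replicate block, or with any 1 SLCDS library or Control replicate 1 or 2 left out (limma, adjusted p = 0.0936 to 0.177). NECTIN3 had 6.75, 7.33 and 6.85 FPKM in SLCDS, against 11.0, 9.72 and 3.45 FPKM in Control. Without Control replicate 3 NECTIN3 was lower (log2 fold change -0.51; limma, adjusted p = 0.000446) and NECTIN2 higher (0.33; limma, adjusted p = 0.00199). After the correction for length and GC content neither passed (limma, adjusted p = 0.856 for NECTIN3 and 0.0598 for NECTIN2). Among splicing factors that act on neurexin and neuroligin exons, 1 of 7 tested genes fell over all libraries and 6 did not pass. NOVA1, a neuronal splicing regulator, had 12.9, 12.8 and 13.1 FPKM in SLCDS, against 19.5, 19.4 and 18.1 FPKM in Control (log2 fold change -0.52; limma, adjusted p = 0.00466). Without Control replicate 3, PTBP2 was also lower (log2 fold change -0.26; limma, adjusted p = 0.0292) and NOVA2 higher (0.21; limma, adjusted p = 0.0435). After the correction for length and GC content NOVA2 passed (limma, adjusted p = 0.0463) and PTBP2 did not (limma, adjusted p = 0.160). None of the 15 tested intracellular partners passed in limma over all libraries, and 1, MAGI1, had an unadjusted p under 0.05. Without Control replicate 3, CASK was lower (log2 fold change -0.27; limma, adjusted p = 0.0112) and MAGI1 higher (0.25; limma, adjusted p = 0.0314). Both also passed after the correction for length and GC content (limma, adjusted p = 0.0269 for CASK and 0.0249 for MAGI1). Of the 15 intracellular partners APBA2, a gene of the Mint adaptor proteins, was the most abundant, with a mean of 29.2 FPKM in SLCDS and 31.04 FPKM in Control. None of the 8 tested shedding and gamma-secretase genes passed in limma, and 1, ADAM10, had an unadjusted p under 0.05. APH1A, a gamma-secretase subunit, led them with a mean level of 88.7 FPKM for SLCDS and 92.5 FPKM for Control. ADAM10, the protease known to shed neuroligin 3, had 11.4, 11.8 and 11.5 FPKM in SLCDS, against 9.84, 9.87 and 7.30 FPKM in Control. It did not pass over all libraries (limma, adjusted p = 0.169), and without Control replicate 3 it was higher (log2 fold change 0.21; limma, adjusted p = 0.0134). NCSTN, the gene of the gamma-secretase subunit nicastrin, also passed without that library (log2 fold change 0.12; limma, adjusted p = 0.0392). After the correction for length and GC content neither passed (limma, adjusted p = 0.0596 for ADAM10 and 0.116 for NCSTN).

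Of 11437 other tested genes, those whose centred log2(FPKM + 1) profile over the 6 libraries lay nearest to that of NRXN3 included SCN9A (Euclidean distance 0.11) and NDNF (0.12). SCN9A, a voltage-gated sodium channel gene, averaged 1.67 FPKM in SLCDS and 0.278 FPKM in Control. NDNF, which encodes a secreted neurotrophic factor, averaged 15.6 FPKM in SLCDS and 7.47 FPKM in Control. Likeness here is a description of 6 libraries in 2 groups.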

How the data were processed

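The authors deposited 1 file of FPKM values per library, on a linear scale, for 3 SLCDS and 3 Control libraries made from total RNA (VAHTS Universal V6 kit), as the labels' protocols state. For the aligner, counter and annotation, the sources used here give no names. Builds named in the submitters' processing notes are GRCm38 and mm10, of mouse. The symbols are human and 16528 of 16832 match RefSeq, so the genome aligned to is not settled, and the coordinates printed belong to RefSeq windows only. Groups and replicate numbers came from the titles. Nothing says that libraries came from separate cultures, so p-values measure the spread between libraries, which may be technical. Over 1075 genes with at least 500 fragments, replicates differed more than counting alone gives (median chi-square 1.01 to 1.27, and 17.0 and 17.2 with Control replicate 3, against 0.455), so none were merged.

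Values were tested as log2(FPKM + 1) with limma (version 3.58.1, R 4.3.3) in 2-sided tests whose variance prior depended on expression. P-values were adjusted by Benjamini-Hochberg over 11506 genes that reached an FPKM of 1 in no fewer than 3 libraries. Called means an adjusted p under 0.05. Single members under the filter were compared by an exact permutation test and by exact counting intervals on fragments. The procedure was tested on simulated data. Members and lists were chosen with earlier results of these data known. Named genes were the members, up to 4 called genes of each list or else its most abundant tested gene, the 3 nearest profiles of a called member, and genes overlapping a member. Exceptions are named or were chosen after their values were seen (LRRC4B, NXPH1, SLITRK6, TENM1, TENM4, ADAM10, NCSTN, MAGI1, CASK, NECTIN2 and NECTIN3). ADGRL1, PTPRS, PTPRF, IL1RAP, SLITRK2, LRFN4, NTNG1, NTNG2, PTBP2 and NOVA2 were also chosen after their values were seen. Some genes picked by the rule or held in the lists are not reported here, though counts include them. GENCODE release 29 gave transcript length and GC content for 98% of tested genes. Alternatives were pseudocounts of 0.1 and 0.5, omitting the filter, a mean FPKM of 5 or more, 3 scalings, 2 variance priors, leaving out each library in turn, a replicate block and, chosen after seeing the data, subtraction of a natural spline in length and GC content (4 degrees of freedom each) from every library. Other steps ran in Python 3.11.15 (scipy 1.17.1, pandas 2.3.3, numpy 2.4.6; figures with matplotlib 3.10.9).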

Additional observations from a re-analysis of the deposited data

How the results depend on the processing

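NRXN3 kept its direction and its call in all 16 other settings that tested it; a mean FPKM of at least 5 removed it, leaving 0 of 2 members called. The number of members called was 1 over all libraries, 1 to 3 with each library left out in turn, the 3 without Control replicate 3. It was 2 once length and GC trends were taken out. Partner genes called numbered 6, with 3 at a mean FPKM of at least 5, 11 with the trend removed, and 3 to 23 with each library left out, the 23 without Control replicate 3 and the 3 without any 1 SLCDS library. Genes called over the whole table numbered 701 (70.2% higher), 324 at a mean FPKM of at least 5 (60.5% higher), 455 with the replicate block, 2024 with the trend removed (51.5% higher), and 276 to 3191 with each library left out. The log2 fold change changed sign for NLGN1 (-0.28 to 0.050 with libraries left out), FLRT2 (-0.16 to 0.061) and TENM3 (-0.15 to 0.15, and -0.088 with the trend removed); the cause was not tested. The replicate numbers share no stated source, their residuals correlated at -0.33, 0.36 and 0.065, and the replicate block left 1 member called, NRXN3 (limma, adjusted p = 0.00552). Members under an FPKM of 1 are limited by fragment number, NRXN2 with 23 fragments in all most of all.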
